A study of Mus musculus with 2 samples.

Results

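Integrins are surface receptors built from 1 alpha and 1 beta subunit, and 10 of these subunits were followed here in interstitial cells of the infarcted mouse ventricle. They were chosen by gene name: Itga1, Itga5, Itga11, Itgav, Itgb1 and Itgb5, grouped as 6 matrix-binding subunits, and Itga4, Itgal, Itgam and Itgb2, grouped as 4 leukocyte subunits. The adjustment of the authors' p-values counts 16846 genes in the analysis of all cells. The number of genes that the study states after its filter is slightly higher, and the difference was not resolved here. Of the 10 subunits, 9 have a row in at least 1 of 22 deposited comparison tables, 18 for cell clusters and 4 for subclusters of the fibroblast cluster. Itga11, a collagen-binding subunit of fibroblasts, has no row in any of them and was not analysed here.

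Single cells were measured by droplet RNA sequencing in 2 libraries, 1 from each genotype, so no value below has a replicate or an error, and no test of genotype was possible. The control library, PostnMCM, came from mice with a tamoxifen-inducible Cre recombinase (MerCreMer) placed in the Postn locus. That promoter turns on as fibroblasts differentiate into myofibroblasts, so other cell types are not its intended target. The other library, Yapfl/fl;Wwtr1fl/+;PostnMCM, came from mice that also carried 2 floxed alleles of Yap1 and 1 of Wwtr1. Mice of both genotypes carried an eGFP reporter in the Rosa26 locus, underwent myocardial infarction (MI) as adults and were fed tamoxifen citrate chow at 0.4 g/kg, with hearts taken 6 days after MI according to the labels. The cells were sorted for viability, not for Cre activity, and the number of mice behind each library was not given in the sources used here.

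An integrin's alpha and beta chains pair before they reach the cell surface, and the pair decides what is bound. Receptors that share Itgb1 (β1) or contain Itgav (αV) bind fibronectin, collagens, vitronectin and the latent form of TGF-β, and they join the actin cytoskeleton to the matrix through talin, kindlin and vinculin at focal adhesions, where stretch is sensed. Receptors that contain Itgb2 (β2) are found on leukocytes and hold them to the vessel wall and to other cells through ICAMs and complement fragments. Itga4 (α4) pairs with Itgb1 to bind VCAM1 and fibronectin, mostly on lymphocytes and monocytes. In fibroblasts, Yap and Taz, the products of Yap1 and Wwtr1, are held in the nucleus on stiff matrix, and integrin adhesion is one of the inputs to that response.

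Values are the authors' deposited ones. The share is the percent of cells of a cluster with a corrected count above 0, and the log2 fold change is the log2 mean of corrected counts plus 1 in the library labelled depleted minus that in the control library, so that a negative value is lower in the library labelled depleted. To be listed in a cluster table, a gene needed a count in 25% or more of the cells from 1 of the libraries and a log2 fold change of 0.25 or more in size. A gene that is not listed therefore has no value. The 4 subcluster tables have no such limits and hold 15059 genes each, and the same 2 limits were applied to them here to call a gene lower or higher.

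The wording "labelled depleted" is used because the floxed transcripts were not uniformly lower in these cells, which were not sorted for Cre activity. This concerns RNA only. By staining, the study reports markedly less nuclear Yap and Wwtr1 protein in GFP-positive myofibroblasts of this genotype, which the RNA values do not measure. In fibroblast subclusters 0, 3, 4 and 5, the log2 fold change of Yap1 was 0.07, 0.31, 0.04 and 0.26. That of Wwtr1 was 0.15, -0.30, -0.21 and -0.16. The study states cell totals per library and an average read depth, but the tables give neither the cells nor the counts per cell for a cluster in each library, so the depth behind a share is unknown. The finest step between 2 share values shows how coarse a share can be. It is close to the share that 1 cell makes, so wide steps mean few cells. It was at most 0.5 percentage points in clusters 0 to 5 in both libraries. In the control library it was 9.0 points in clusters 10 and 18. In the library labelled depleted it was 9.0 points in cluster 17 and 10.0 points in fibroblast subcluster 4. Fibroblast subcluster 5 had steps of 4.3 points in the control library and 4.7 in the other.

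Over the 18 cluster tables, the 10 subunits, Itga11 included, make 180 gene-by-cluster entries, of which 17 were listed lower and 9 higher. Over all genes and clusters, 2.66% of entries were listed lower and 2.43% higher. The subunits' own shares were 9.44% and 5%, but the figures for all genes include those too rare to be listed anywhere, so they do not cover like genes. Leukocyte subunits made 12 of the lower and 7 of the higher entries, and matrix-binding subunits made 5 and 2. At least 1 subunit was listed in 12 clusters. None was listed in clusters 1 (neutrophils), 2 (B cells), 6, 7 (T cells), 9 and 12 (macrophages/monocytes). Cluster names are the study's, and clusters 6 and 9 were left without one here.

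**Figure D1:**
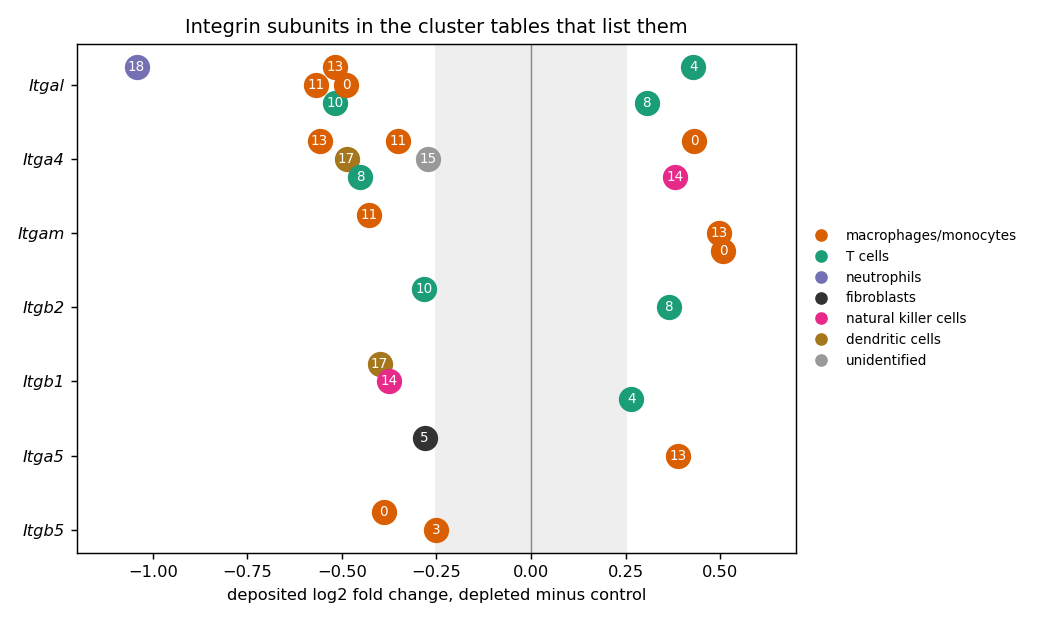
Deposited log2 fold change (horizontal axis, library labelled depleted minus control) of 7 integrin subunits in each cluster table that lists them; the number in a point is the cluster, its colour the cell type, its small vertical offset only keeps points apart, and the grey band holds the values that the cluster tables leave out. Itgal is below -0.4 in 3 clusters of macrophages/monocytes (0, 11 and 13) and above 0.3 in T cell clusters 4 and 8.

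Itgal encodes αL, which pairs with β2 to form LFA-1, the receptor by which leukocytes bind ICAM1. It was listed in 7 clusters, lower in 5 and higher in 2. In macrophages/monocytes of cluster 0, 57.5% of control cells and 30.4% of cells labelled depleted had a count (log2 fold change -0.49). In cluster 11 the shares were 49.3% and 20.8% (-0.57), and in cluster 13 they were 85.3% and 56.3% (-0.52). So in each of the 3 macrophage/monocyte clusters that list it, Itgal was counted in fewer cells of the library labelled depleted.

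In T cells, Itgal differed in direction between clusters. Cluster 4 had counts in 29.9% of control cells and 54.3% of cells labelled depleted (0.43), and cluster 8 in 29.8% and 41.7% (0.31). Cluster 10 went the other way, with 54.5% and 35.5% (-0.52), but the study describes this cluster as mostly cells of the library labelled depleted, and its control shares move in steps of 9.0 points. The difference between T cell clusters was not tested. Neutrophils of cluster 18 gave the lowest cluster value of any subunit, -1.04, with counts in 63.6% of control cells and 17.6% of cells labelled depleted. Shares in that cluster move in steps of 9.0 and 5.8 points, and neutrophil cluster 1, where the steps are 0.2 and 0.3 points, did not list Itgal. In cluster 18, 2 of 5 neutrophil markers (Retnlg at -0.85 and Cxcr2 at -0.51), Lyz2 (-0.49) and 2 of 7 leukocyte markers (Fcer1g at -0.38 and Cd52 at -0.25) were listed lower beside it, and their part in the result was not tested.

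Itgam encodes αM, the partner of β2 in Mac-1, which binds the complement fragment iC3b and fibrinogen and is used as a myeloid marker. It was listed in 3 clusters, all of macrophages/monocytes. Cluster 0 had counts in 94.8% of control cells and 96.9% of cells labelled depleted, with a log2 fold change of 0.51. Cluster 13 was alike, with 92.6% and 95.8% (0.50). Cluster 11 was lower, with 83.3% and 68.8% (-0.43). Itgam and Itgal, both alpha partners of β2, thus lay on opposite sides of 0 in clusters 0 and 13 and on the same side in cluster 11.

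Itgb2, the shared β2 chain, was listed in 2 clusters of T cells and in none of the macrophage or neutrophil clusters. In cluster 8 it was counted in 53.8% of control cells and 66.7% of cells labelled depleted (0.36). In cluster 10 it was counted in 54.5% and 31.2% (-0.28). Both of these clusters also listed Itgal, and there the 2 chains of LFA-1 had the same direction.

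Itga4 encodes α4, the VCAM1-binding chain of VLA-4. It was listed in 7 clusters, lower in 5 and higher in 2. The lowest value was in macrophages/monocytes of cluster 13, with counts in 89.5% of control cells and 64.8% of cells labelled depleted (-0.56). Cluster 11 was lower as well, with 75.7% and 70.8% (-0.35), while cluster 0 was higher, with 62.2% and 75.9% (0.43). These 3 clusters, the ones of macrophages/monocytes that list Itgal as well, shared a direction for Itgal but not for Itga4, and clusters 3 and 12 list neither.

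Among lymphocytes, Itga4 was lower in T cell cluster 8, with 69.0% of control cells and 52.1% of cells labelled depleted (-0.45). In natural killer cells of cluster 14 it was higher, with 88.6% and 92.3% (0.38). Dendritic cells of cluster 17 had 65.0% and 63.6% (-0.49), and the unidentified cluster 15 had 87.5% and 86.4% (-0.27). In clusters 14, 15 and 17 the shares differed by less than 1 step of the coarser library. The higher value in cluster 14 and the lower values in clusters 15 and 17 thus rest on the mean level per cell and not on the share.

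**Figure D2:**
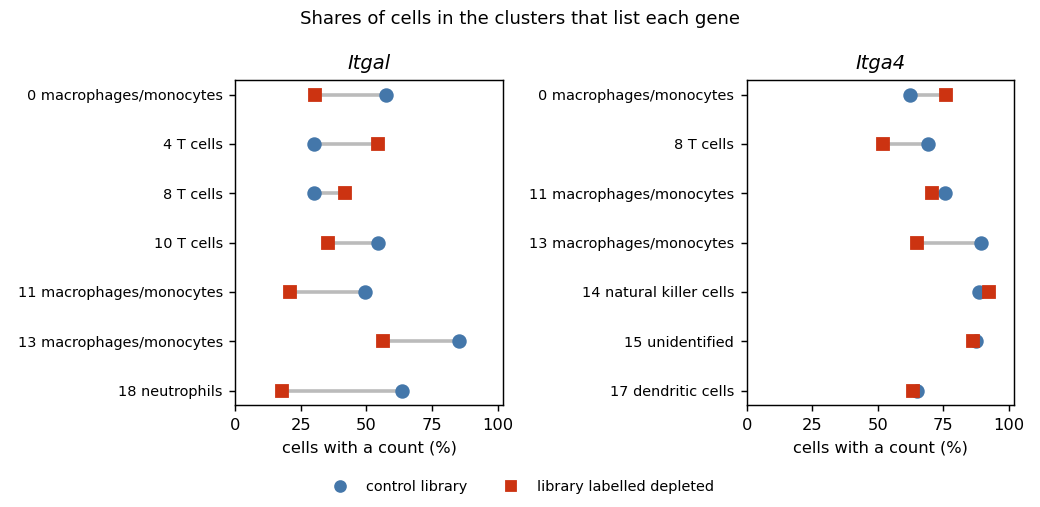
Percent of cells with a count (horizontal axis) for Itgal and Itga4 in every cluster that lists them, with the control library as circles and the library labelled depleted as squares. Itgal lies lower in the library labelled depleted in clusters 0, 10, 11, 13 and 18 and higher in clusters 4 and 8, and the shares of Itga4 lie within 4 points of each other in clusters 14, 15 and 17.

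Itgb1 encodes β1, the partner of Itga1, Itga4, Itga5, Itga11 and Itgav among the subunits studied. It was listed higher in T cell cluster 4, with 66.4% of control cells and 68.7% of cells labelled depleted (0.26), and lower in natural killer cells of cluster 14 (97.5% and 100%, -0.38) and in dendritic cells of cluster 17 (80.0% and 81.8%, -0.40). In clusters 14 and 17 the share was not lower in the library labelled depleted although the log2 fold change was negative. In cluster 14 the 2 chains of VLA-4 had opposite signs, with Itga4 at 0.38 and Itgb1 at -0.38. In cluster 17 both were lower, at -0.49 and -0.40.

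Of the other matrix-binding subunits, Itgb5 and Itga5 were listed in macrophages/monocytes. Itgb5 encodes β5, which pairs with αV to bind vitronectin. It was counted in 88.0% of control cells and 76.2% of cells labelled depleted in cluster 0 (-0.39), and in 79.1% and 70.3% in cluster 3 (-0.25). The value in cluster 3 is just inside the 0.25 limit. In that cluster the fibroblast marker Col3a1 (41.5% and 26.0%, -0.27), the neutrophil markers S100a9 (-0.88) and S100a8 (-0.67), Lyz2 (-0.47) and Pf4 (-0.30) were also listed lower. The macrophage marker Adgre1 was higher (0.26). The part of these markers in the value of Itgb5 was not tested. Itga5 encodes α5, which with β1 forms the main fibronectin receptor. In cluster 13 it was higher, with 31.6% of control cells and 49.3% of cells labelled depleted (0.39).

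Markers of other cells differed between the libraries in the same clusters. In cluster 11, all 5 neutrophil markers on the list (S100a8, S100a9, Retnlg, Csf3r and Cxcr2) were listed lower, S100a8 from 59.7% of control cells to 27.1% of cells labelled depleted and Cxcr2 from 34.7% to 10.4%. There, 4 of 6 macrophage markers were listed lower too, among them Lyz2 (76.4% and 45.8%). Itgal, Itgam and Itga4 were thus lower in a cluster where neutrophil and macrophage markers were lower too, and the part of such cells or their RNA in the result was not tested. In cluster 0, S100a8 and S100a9 were listed lower (68.3% and 34.3%, 54.8% and 20.3%). Of the macrophage markers there, Lyz2 (-0.72) and Cd68 (-0.27) were lower, and Adgre1, which encodes F4/80, was higher (77.4% and 89.9%, 0.30). Of the leukocyte markers, Tyrobp (-0.37) and Fcer1g (-0.26) were lower and Laptm5 (0.56), Cd52 (0.34) and Ptprc (0.28) higher. The platelet marker Pf4 was lower (-0.40). In cluster 13, 2 of 5 neutrophil markers were lower and 1 higher, and Lyz2 (-1.36) and C1qb (52.6% and 26.8%, -0.39) were lower. Of the leukocyte markers there, Coro1a (-0.39) and Ptprc (-0.38) were lower and Lcp1 higher (0.44). The platelet marker Pf4 (1.67) and the fibroblast marker Gsn (0.28) were higher. In T cell clusters 4 and 8, where Itgal was higher, Cd3g (0.42 and 0.44) and Cd3e (0.29 and 0.26), parts of the T cell receptor complex, were listed higher. In both clusters the leukocyte markers Cd52 (0.46 and 0.47) and Lcp1 (0.29 and 0.32) were also higher and Lyz2 (-0.35 and -0.36) lower, and S100a9 was lower in cluster 8 (-0.83). Cd3g was higher in cluster 10 also (0.50), where Itgal was lower. In cluster 10, 3 of 6 macrophage markers, with Lyz2 the lowest at -1.07, and 3 of 7 leukocyte markers, with Tyrobp the lowest at -0.84, were listed lower beside Itgal and Itgb2. Col3a1 (45.5% and 17.2%, -0.64), S100a9 (-0.48), the endothelial marker Pecam1 (-0.48) and Pf4 (-0.44) were lower as well. The T cell markers Cd3e (0.30) and Lck (0.25) and the natural killer marker Gzma (0.72) were higher. The part of all these markers in that result was not tested. In natural killer cells of cluster 14, the natural killer marker Klrb1c was higher (73.4% and 100%, 1.23) and Ncr1 lower (-0.40). The leukocyte markers Lcp1 (0.45) and Ptprc (0.27) were higher there, and Lyz2 (-0.72) and C1qb (-0.65) were lower by log2 fold change. The fibroblast marker Col3a1 was lower as well (26.6% and 11.5%, -0.30), beside Itgb1. In dendritic cells of cluster 17, Lyz2 was lower (-1.10), while S100a8 (1.17) and S100a9 (0.68) were higher by log2 fold change though not by share (25% and 9.1%, 50.0% and 27.3%). The fibroblast markers Col3a1 (35.0% and 0.0%, -0.63) and Gsn (-0.36) were lower there too, beside Itgb1 and Itga4. The part of the markers in the values of the subunits was not tested in any of these clusters.

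In fibroblasts, the table for cluster 5 lists 605 genes, or 3.59% of all genes of the analysis, and 1 of the 10 subunits. Itga5 was counted in 32.2% of control cells and 25.7% of cells labelled depleted there (-0.28). Itga1, Itgav, Itgb1 and Itgb5 did not pass both limits in cluster 5. The cluster was fibroblast-like by its markers, since Col3a1 was counted in 100% of cells of both libraries and Dcn in 99.7% and 100%. Other markers differed in the same table. S100a9, a neutrophil gene, was counted in 49.7% of control cells and 9.1% of cells labelled depleted, and of 8 fibroblast markers, 5 were listed higher, from Pdgfrb (0.31) to Pdgfra (1.12, 47.7% and 84.0%), and Gsn was listed lower (-0.77). The genotypes are also described as filling the subclusters of cluster 5 unequally, with subclusters 0, 2 and 4 mainly from control hearts, subcluster 1 mainly from hearts labelled depleted, and subclusters 3 and 5 from both. Within cluster 5 as a whole, a difference in level therefore cannot be told apart from a difference in the mix of subclusters.

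The 4 subclusters of cluster 5 that were compared are described by the study as rich in IGF binding proteins (0), proliferating (3), matrifibrocyte-like (4) and secretory (5). Col1a1, Col1a2, Col3a1 and Dcn were counted in 100% of cells of both libraries in each. Other fibroblast markers differed between the libraries: Pdgfra was higher in subclusters 0 (38.6% and 71.9%, 1.35), 3 (0.76) and 4 (0.39), and Pdgfrb in subclusters 3 (0.38) and 4 (0.71). Dcn was higher in subcluster 0 (0.30) and lower in subcluster 4 (-0.28), and Lum was higher in subcluster 3 (0.29) and lower in subcluster 4 (-0.40). Gsn (gelsolin, which severs actin filaments) was higher in subcluster 4 (0.44). In subcluster 5, Gsn was at -2.35 and Lum (lumican) at 0.99, and Postn, the host gene of the Cre, was higher (87.0% and 100%, 1.003). Their part in the values of the integrin subunits was not tested. Subclusters 1 and 2 were not analysed here. The subcluster tables come from a separate normalization, and shares differ in scale from cluster 5: of the 605 genes that cluster 5 lists, 399 had a lower share there than in all 4 subclusters in the control library, and 358 in the library labelled depleted. Itga5 was one, with control shares of 42.5% to 78.3% in the subclusters. Shares were therefore compared only within a table. Over genes in at least 25% of cells, the median share was 47.8% to 53.3% in the control library and 50.0% to 53.1% in the library labelled depleted.

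**Figure D3:**
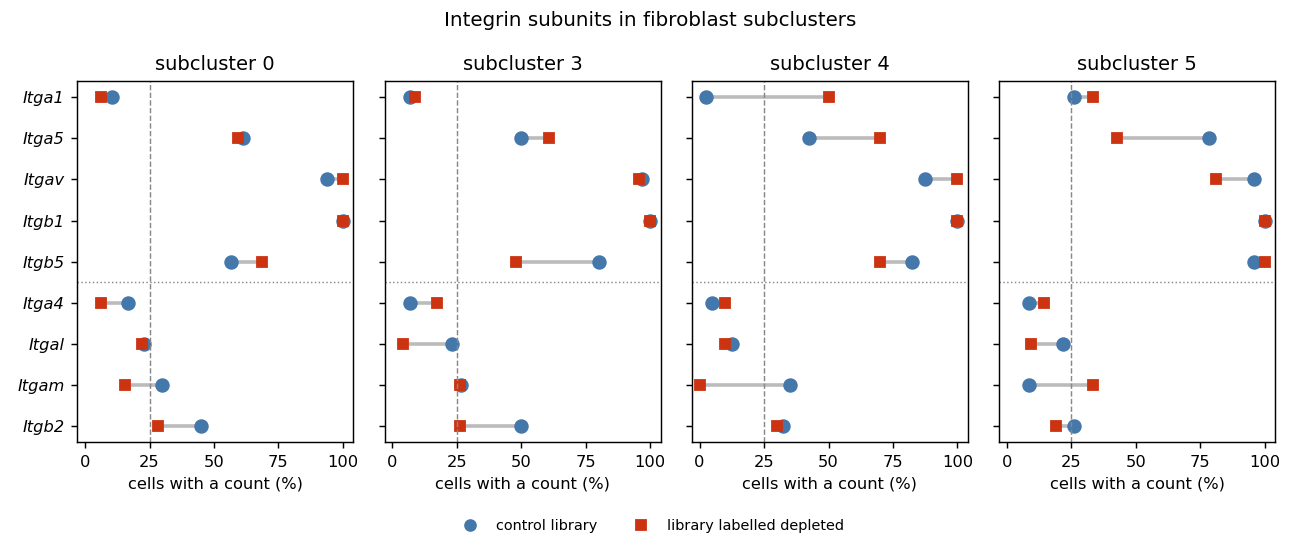
Percent of cells with a count (horizontal axis) for 9 integrin subunits in fibroblast subclusters 0, 3, 4 and 5, with the control library as circles and the library labelled depleted as squares; the dotted line parts matrix-binding (above) from leukocyte subunits, and the dashed line marks 25% of cells. Itga5 is at 42.5% and 70.0% in subcluster 4, at 78.3% and 42.9% in subcluster 5, and Itgb1 sits at 100% throughout.

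Among all genes in at least 25% of cells, 9.87% were lower and 12.5% higher in subcluster 0, and 15.1% and 13.8% in subcluster 3. The figures were 19.5% and 25.2% for subcluster 4, and 23.5% and 20.3% for subcluster 5. Of the subunits that reached 25% of cells, 2 of 6 were lower and 1 higher in subcluster 0 (Itgam and Itgb2 lower, Itgb5 higher). In subcluster 3, 2 of 6 were lower and 1 higher (Itgav and Itgb5 lower, Itgam higher). In subcluster 4, 3 of 7 were lower and 3 higher (Itgam, Itgb1 and Itgb5 lower, Itga1, Itga5 and Itgav higher). In subcluster 5, 3 of 7 were lower and 2 higher (Itga5, Itgav and Itgb5 lower, Itga1 and Itgam higher). Subclusters 4 and 5 thus held more called subunits than subclusters 0 and 3, as they held more called genes of any kind.

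The subunit with the widest span in fibroblasts was Itga5, the fibronectin-binding chain. In subcluster 5, the secretory group, it was counted in 78.3% of control cells and 42.9% of cells labelled depleted, and its log2 fold change was -1.54. Only 38 of the 8349 genes in at least 25% of cells had a value as low as this, or 0.455%. Shares there move in steps of 4.3 points in the control library and 4.7 in the library labelled depleted, so they rest on few cells. In subcluster 4 it was higher, with 42.5% and 70.0% (0.55), a value reached by 5.85% of genes there. In subcluster 0 it was counted in 61.4% and 59.4% (-0.21) and in subcluster 3 in 50.0% and 60.9% (0.04), so neither passed the limit.

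Itgav and Itgb5, which pair into a vitronectin receptor able to activate latent TGF-β, were both lower in subclusters 3 and 5. Itgav was counted in 96.7% of control cells and 95.7% of cells labelled depleted in subcluster 3 (-0.36) and in 95.7% and 81.0% in subcluster 5 (-0.44). Itgb5 was counted in 80.0% and 47.8% in subcluster 3 (-0.29) and in 95.7% and 100% in subcluster 5 (-0.51). The lower value of Itgb5 in subcluster 5 was one of level per cell and not of share. In subcluster 4 the 2 chains parted, with Itgav higher (87.5% and 100%, 0.29) and Itgb5 lower (82.5% and 70.0%, -0.63). In subcluster 0, Itgb5 was higher (56.6% and 68.8%, 0.35) and Itgav was at 0.02 (93.8% and 100%). Itgb5 was thus lower in 3 of the 4 subclusters, as it was in both macrophage/monocyte clusters that list it.

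Itga1, the α1 chain of a collagen receptor, was counted in under 11% of cells of either library in subclusters 0 (10.3% and 6.2%, -0.06) and 3 (6.7% and 8.7%, 0.03). In subcluster 5 it was higher, with 26.1% of control cells and 33.3% of cells labelled depleted (0.31). In subcluster 4 it was counted in 2.5% and 50.0% (0.73). The control share there is the smallest share above 0 that any gene has in that table and library, and shares of the library labelled depleted come in steps of 10.0 points.

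Itgb1 was counted in 100% of cells of both libraries in all 4 subclusters. Its log2 fold change was -0.01, -0.15 and -0.09 in subclusters 0, 3 and 5, and it passed the limit only in subcluster 4, at -0.32. There its partners Itga1, Itga5 and Itgav had the opposite sign. In subcluster 5 the fibronectin receptor had its alpha chain at -1.54 and its beta chain at -0.09.

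The median over the 5 matrix-binding subunits with a row was -0.01, -0.15, 0.29 and -0.44 in subclusters 0, 3, 4 and 5. The median over all genes in at least 25% of cells was 0.01, -0.01, 0.03 and -0.01. A median over 5 genes with values on both sides of 0, as in subcluster 4, says little of any one of them.

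**Figure D4:**
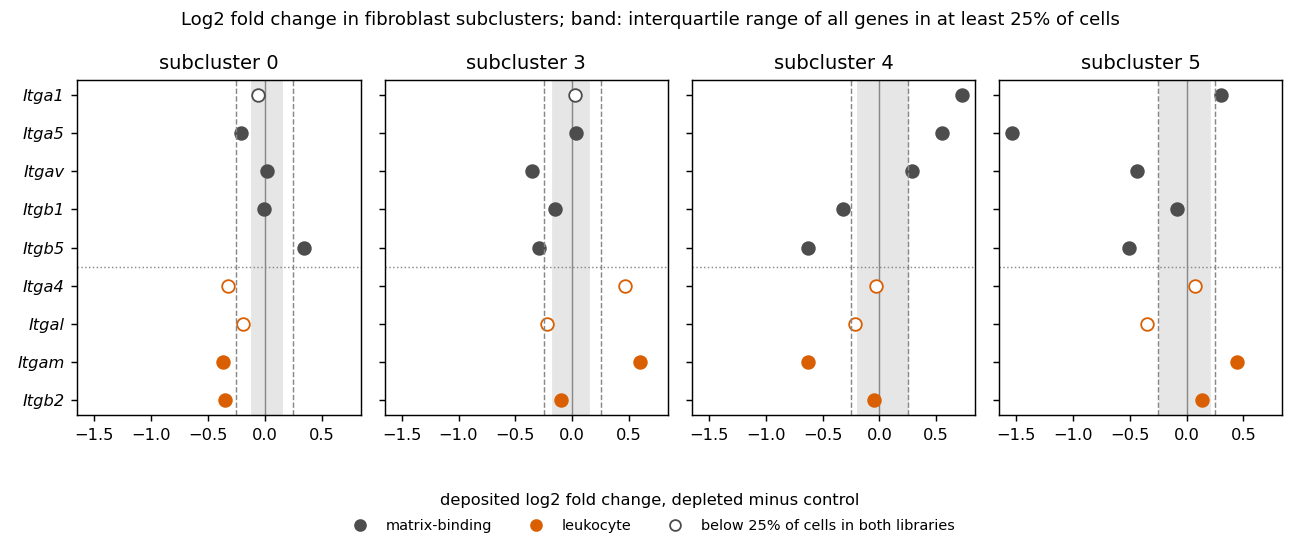
Deposited log2 fold change (horizontal axis, library labelled depleted minus control) of 9 integrin subunits in fibroblast subclusters 0, 3, 4 and 5; dark points are matrix-binding and orange points leukocyte subunits, open points were in under 25% of cells of both libraries, dashed lines mark 0.25 on either side and the grey band spans the interquartile range of all genes in at least 25% of cells. Itga5 in subcluster 5 stands at -1.54, and Itgam changes side between subclusters 0 and 4 (below 0) and 3 and 5 (above 0).

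Leukocyte subunits were also counted in the fibroblast subclusters, although β2 integrins are not typical of that cell type. Itgb2 was counted in 44.8% of control cells and 28.1% of cells labelled depleted in subcluster 0 (-0.35), the one subcluster in which it passed the limit. The shares were 50.0% and 26.1% in subcluster 3 (-0.10), and subclusters 4 and 5 had 32.5% and 30.0% (-0.05) and 26.1% and 19.0% (0.13). Its share was lower in the library labelled depleted in all 4 subclusters, while the log2 fold change was above 0 in subcluster 5.

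Itgam passed the limit in all 4 subclusters but in both directions. It was lower in subcluster 0, with 29.7% of control cells and 15.6% of cells labelled depleted (-0.37), and in subcluster 4, with 35.0% and 0.0% (-0.63). It was higher in subcluster 5, with 8.7% and 33.3% (0.44), and in subcluster 3 by its log2 fold change (0.59) but not by its share (26.7% and 26.1%). The zero in subcluster 4 stands in a library where every share was a multiple of 10.0% and the smallest above 0 was 10.0%. Such shares are those of about 10 cells, so the zero rests on very few cells.

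Itgal and Itga4 stayed under 25% of cells in both libraries in all 4 subclusters and were not called. Itgal was counted in 22.8% and 21.9%, 23.3% and 4.3%, 12.5% and 10.0%, and 21.7% and 9.5% of control cells and cells labelled depleted in subclusters 0, 3, 4 and 5. Its log2 fold changes, -0.19, -0.22, -0.21 and -0.35, were all below 0. Itga4 was counted in 5.0% to 16.6% of control cells and 6.2% to 17.4% of cells labelled depleted, with log2 fold changes from -0.33 in subcluster 0 to 0.47 in subcluster 3. The median of the 4 leukocyte subunits was -0.34, 0.18, -0.13 and 0.10 in subclusters 0, 3, 4 and 5.

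Leukocyte markers were read in the same subclusters. All 7 general leukocyte markers (Ptprc, Coro1a, Laptm5, Lcp1, Tyrobp, Fcer1g and Cd52) were counted in every subcluster, in 13% to 90.0% of control cells and 19.0% to 60.0% of cells labelled depleted. The summed shares of these 7 markers in the control library and the library labelled depleted were 397.3 and 253.2 points in subcluster 0. They were 340.0 and 247.8 points in subcluster 3 and 380.0 and 240.0 points in subcluster 4, against 291.3 and 281.0 points in subcluster 5. By log2 fold change, all 7 were below 0 in subcluster 0, from Tyrobp (-1.44) to Ptprc, the pan-leukocyte antigen CD45 (-0.35). In subcluster 4, 5 were below 0, down to Tyrobp at -1.49 and Cd52 at -1.09, with Ptprc at 0.06 and Laptm5 at 0.10. In subcluster 3, 6 were above 0, up to Laptm5 at 0.66 and Ptprc at 0.58, with Cd52 at -0.06. All 7 were above 0 in subcluster 5, from Cd52 (0.13) to Fcer1g (0.58). The 6 macrophage markers did not move as 1 group: in subcluster 0, where Itgam was lower, Lyz2 (-1.83) and Cd68 (-0.66) were below 0, and C1qa (0.53), C1qc (0.46), Adgre1 (0.14) and C1qb (0.13) above it. In subcluster 4, where Itgam was lower too, all 6 were below 0, from Lyz2 at -1.49 to Cd68 at -0.11. In subcluster 3, where its log2 fold change was higher, all 6 were above 0, from Cd68 at 0.11 to Lyz2 at 1.75. In subcluster 5, where Itgam was higher, 5 were above 0, up to C1qa at 1.05, and Cd68 was at -0.28.

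Neutrophil transcripts were present as well. S100a8 was counted in 78.3% to 91.0% of control cells and 40.0% to 71.4% of cells labelled depleted, and its log2 fold change was -3.96, -2.26, -2.71 and 0.13 in subclusters 0, 3, 4 and 5. Cxcr2, a receptor of mature neutrophils, was at 0.0% in the library labelled depleted in subclusters 0 and 3 and in the control library in subcluster 5. All 6 macrophage markers were above 0 in both libraries except Cd68 in subcluster 5, which was at 0.0% in the library labelled depleted. Of 5 T cell markers, 4 had a row, and their summed shares were higher in the library labelled depleted in all 4 subclusters, from 28.2 and 50.0 points in subcluster 0 to 13 and 104.8 points in subcluster 5, where Cd3e, Cd3g and Lck were at 0 in the control library. B cell markers stayed under 21% of cells, with 2 to 3 of 4 at 0 in the library labelled depleted in each subcluster. The tables cannot tell free RNA or doublets from expression in fibroblasts, no doublet caller is named in the sources used here, and the part of leukocyte RNA in the values of Itgam, Itgb2, Itgal and Itga4 was not tested.

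Set side by side, the chains of known pairs were both listed in 4 entries over the cluster tables, of which 3 had 1 sign and the entry for VLA-4 in natural killer cells had 2. In the subclusters, pairs with both chains in at least 25% of cells made 18 entries, 10 of the same sign and 8 of opposite sign. Itgb1 enters many of these entries with a value near 0, so its sign there carries little. Over all 22 tables, 8 of the 9 subunits were past 0.25 in both directions, lower in 1 population and higher in another. So were 36.1% of the 11355 genes that reached 25% of cells in any table, and the difference between these shares was not tested. Genes that reached 25% of cells in few tables are among them and could pass the limit less often, so the shares do not cover like genes.

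Ligands of these receptors were compared in the same subclusters, over a list of 19 genes. In subcluster 5, 11 of the 17 ligands in at least 25% of cells were lower and 0 higher, with a median of -0.51. That is 64.7% lower, against 23.5% of all genes. C3, whose fragment iC3b is bound by Mac-1, was lowest at -2.78 (91.3% and 57.1% of cells). In subcluster 0, 8 of 16 were higher and 1 lower, or 50% higher against 12.5% of all genes: Thbs1 (thrombospondin-1) was highest at 0.71 (39.3% and 62.5%) and Spp1 (osteopontin, bound by αV and α4 integrins) was lowest at -0.71 (66.9% and 25%). In subcluster 3, 5 of 15 were higher (33.3%, against 13.8% of all genes) and 0 lower, with C3 highest at 0.74. In subcluster 4, 4 of 16 were higher (25%, near the 25.2% of all genes) and 6 lower (37.5%, against 19.5%), from Spp1 at -0.95 to C3 at 1.14. C3 thus stood at the top of the list in subclusters 3 and 4 and at its foot in subcluster 5, the order that Itga5 showed between subclusters 4 and 5. In cluster 5 as a whole 4 of 19 ligands were listed (21.1%, against 3.59% of all genes, rare ones included). Of these, 3 were higher, C3 the highest at 0.71 (96.3% and 90.9%), and Thbs1 was listed lower at -0.37.

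The adaptors that join integrin tails to actin, a list of 31 genes, were compared in the same way. In subcluster 5, 15 of 26 in at least 25% of cells were lower and 2 higher, with a median of -0.29. These are 57.7% and 7.69%, against 23.5% and 20.3% of all genes. Vcl (vinculin, which reinforces talin under load) was lowest at -0.78 (91.3% and 85.7%), and Itgb1bp1 (ICAP-1, which binds the tail of β1 and restrains its activation) was highest at 0.35 (43.5% and 61.9%). In subcluster 3, 7 of 28 were lower (25%, against 15.1%) and 3 higher (10.7%, against 13.8%), from Tns1 (tensin-1) at -0.51 to Tln2 (talin-2) at 0.38. In subcluster 4, 3 of 25 were lower (12%, against 19.5%) and 6 higher (24%, near the 25.2% of all genes), from Parvb (β-parvin) at -0.34 to Tns2 (tensin-2) at 0.81. In subcluster 0, 3 of 28 were lower (10.7%, near the 9.87% of all genes) and 5 higher (17.9%, against 12.5%), from Parvb at -0.54 to Tns3 at 0.51. Cluster 5 listed 2 of 31 adaptors (6.45%, against 3.59% of all genes, rare ones included), both lower: Vcl at -0.29 and Rap1b, a small GTPase that activates integrins, at -0.26.

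Of 16 other integrin subunits, 13 had a row. Over the 18 clusters they were listed lower in 6 entries and higher in 4, or 2.08% and 1.39% of their entries, below the 2.66% and 2.43% of all genes, so these entries are no result about them. The lowest was Itgb7, the partner of α4 in the gut-homing receptor of lymphocytes, in T cell cluster 7 (70.7% and 61.0%, -0.45). The highest was Itgax, the αX partner of β2 used as a dendritic cell marker, in macrophages/monocytes of cluster 12 (45.8% and 46.8%, 0.36). In dendritic cells of cluster 17, Itgax was lower (65.0% and 54.5%, -0.43). In the fibroblast subclusters, of those in at least 25% of cells, 0 of 7 were called in subcluster 0 and 0 of 6 in subcluster 4. In subcluster 3, 2 of 5 were lower and in subcluster 5, 1 of 2, against 15.1% and 23.5% of all genes, and none was higher: Itgb8, a partner of αV that binds latent TGF-β, in subcluster 3 (53.3% and 30.4%, -0.53), Itga6 in subcluster 3 (-0.31) and Itgb7 in subcluster 5 (-0.27).

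On the GRCm39 assembly, the build of the authors' reference, GENCODE annotation places Itga5 at chr15:103252713-103275270 on the minus strand, Itgb5 at chr16:33649988-33771137, Itgav at chr2:83554403-83637260, Itga1 at chr13:115089632-115238677 on the minus strand and Itgb1 at chr8:129411876-129460618. Itgal lies at chr7:126895432-126934320 and Itgam at chr7:127661808-127717753, so 2 of the alpha partners of β2 are on 1 chromosome, and Itgb2 itself lies at chr10:77366086-77401542. Itga4 lies at chr2:79085660-79163467. All are annotated as protein-coding genes.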

How the data were processed

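Viable interstitial cells of the ventricle were captured in 2 libraries (10x Chromium). Per the labels and the study's methods, the authors aligned reads with Cell Ranger 6.1.1 to GRCm39 with added reporter sequences, joined the libraries without depth normalization, and used Seurat with SCTransform, regressing on mitochondrial percent. Cluster 5 was normalized again on its own for the subclusters. The deposited fraction of cells (printed as a percent) counts corrected values above 0 in each library. The deposited log2 fold change is the authors' own comparison and is used here because the tables hold no other measure of level. The authors' p-values, raw and adjusted, treat cells as replicates and were used only for their ratio, which gives the 16846 and 15059 genes of the analyses. No p is printed, since cells of 1 library are not replicates.

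All 10 subunits were read from all 22 tables in Python 3.11.15 with pandas 2.3.3. In the subclusters a gene was called at a size of 0.25 (log2) and 25% of cells of either library. Of other lists, counts and the lowest and highest genes are named, with partners and cell markers where they bear on a subunit; Itgax in cluster 17 and Itga6 and Itgb7 in subclusters were chosen after their values were seen, as were genes that fill out a count. Counting was tested on simulated tables. The members and lists were chosen with earlier results of these data known. Groups were those of the labels, 1 library each, so no error, interval or test was possible. The number of cells behind a share shows only through its steps, and the depth is not in the tables. The labels place collection 6 days after MI, whereas the methods of the study put it later. Alternatives were other limits, shares in place of fold changes, centring, and leaving out clusters 6, 9 and 10.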

Additional observations from a re-analysis of the deposited data

Results flagged for a closer look

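With 1 library per genotype, 8 of 9 subunits had a log2 fold change past 0.25 in opposite directions in different cell populations. So had 36.1% of all genes in at least 25% of cells of any table, but these include genes found in few tables and are not like genes. For none of the subunits was the difference between populations tested. In fibroblasts, Itga5 was -1.54 in subcluster 5 and 0.55 in subcluster 4, Itgav was -0.44 and 0.29 in the same subclusters, Itgam was -0.63 in subcluster 4 and 0.59 in subcluster 3, and Itgb5 was -0.63 in subcluster 4 and 0.35 in subcluster 0. Among leukocytes, Itgal was -1.04 in neutrophils of cluster 18 and 0.43 in T cells of cluster 4. Itga4 was -0.56 in macrophages/monocytes of cluster 13 and 0.43 in those of cluster 0. Itgb1 was -0.40 in dendritic cells of cluster 17 and 0.26 in T cells of cluster 4. Itgb2 was -0.35 in fibroblast subcluster 0 and 0.36 in T cells of cluster 8. Of the populations named here, clusters 17 and 18 and subcluster 4 are those where a share moves in steps of 9.0 or 10.0 percentage points in at least 1 library. Such steps mean few cells. In subcluster 5 the steps were 4.3 points in the control library and 4.7 in the library labelled depleted.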

How the results depend on the processing

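No paired analysis was possible because there was 1 library on each side, and for the same reason none could be left out. As no interval can be had, a median or single value is said to move where it shifts by 0.25 or more. Over the 18 cluster tables, 17 lower and 9 higher entries became 5 and 1 at a size limit of 0.5, and 11 and 0 when centred on the median of listed genes, which sits beyond 0.25 in every table because smaller values are not listed. Directions taken from shares gave 15 and 11, and leaving out clusters 6, 9 and 10 gave 15 and 9. In fibroblast subclusters, a size limit of 0.5 left 0 lower and 0 higher subunits in subcluster 0, 0 lower in subcluster 3 and 0 higher in subcluster 5. Share limits of 10% or none added Itga4 to the higher subunits of subcluster 3, making 2. Taken from the log2 ratio of shares, the median of matrix-binding subunits in subcluster 5 was 0, and that of leukocyte subunits was -0.80 in subcluster 0 and -0.49, in place of 0.18, in subcluster 3. The cause was not tested. All other subcluster counts stayed within 1.5 times the reported one and all other medians within 0.25. Of 43 single values, 4 changed sign when taken from shares: Itgb1 in clusters 14 and 17 (0.0365 and 0.0321), Itgam in subcluster 3 (-0.0328) and Itgb5 in subcluster 5 (0.0634). A further 21 moved, of which Itgb1 in subcluster 4 went to 0 and the others kept their sign, 17 stayed within 0.25, and Itgam in subcluster 4 has no ratio because 1 share is 0. Centring moved 25 and turned 1, Itgb1 in cluster 4 (-0.0257). Itga5 in subcluster 5 kept its sign under both. Cell numbers per cluster, which show only through the steps of shares, and depth, which the tables do not give, limit every share.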
